A study of Mus musculus with 3 samples.

Results

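Lilrb4a and 5 related receptor genes of the mouse leukocyte immunoglobulin-like family, Lilr4b, Pirb, Pira2, Lilra5 and Lilra6, were followed in RNA bound to chromatin. The 6 genes were chosen by gene symbol, out of 55536 annotated genes, with their levels and transcript types in these libraries already known, so both are given as descriptions without a test. All 6 were found in the gene tables, together with 40 annotated transcripts, and 5 of the 6 reached at least 1 TPM (transcript abundance scaled by length and library total). Lilra5 had at most 1 count in a library.

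The series has 1 group of 3 libraries and no control. Macrophages, labelled as primary cells of mouse strain C57BL/6J and as BMDM (bone marrow-derived macrophages), had been exposed for 25 min to Lipid A at 100 ng/ml, the membrane anchor of lipopolysaccharide and an agonist of TLR4. RNA of the chromatin fraction was depleted of ribosomal RNA and sequenced as total RNA. The libraries, biological replicates 1, 2 and 3, were made from 1000, 250 and 500 ng of RNA, and all 3 carry the same donor identifier. The labels therefore do not show that the replicates came from separate animals, and the spread between them may be technical. Sex and age were not recorded, and no level given here shows that a gene was induced.

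The gene tables held 13525994, 19230763 and 19207049 estimated counts in replicates 1, 2 and 3. Genes of the ribosomal RNA locus took 8.46%, 27.1% and 23.1% of these counts, so replicate 1 stood apart in composition, and the TPM of its other genes scale up accordingly. The 6 receptor genes held 0.972%, 0.631% and 0.564% of all counts. Pairs of libraries differed by more than counting noise (mean chi-square per gene of 19.3 or more), so each was counted as 1 sample. The median chi-square was 1.72 for replicates 2 and 3, against 5.80 for replicates 1 and 2 and 4.74 for replicates 1 and 3. All 8 macrophage markers, among them Csf1r and Adgre1, were at 10 TPM or more, with summed levels of 2494, 1773 and 2126 TPM. The summed marker lists of mast cells and basophils, neutrophils, B cells, dendritic cells, and T and NK cells did not exceed 3.52 TPM in any library in the RSEM-type tables, and the mast cell genes Mcpt4, Tpsb2 and Fcer1a were listed at 0. In the kallisto-type tables, a second quantification, the T cell genes Cd3d and Thy1, at 0 in the RSEM-type tables, averaged 26.5 and 15.6 TPM.

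Paired receptors are families in which closely related cell surface proteins send opposite signals. The inhibitory form carries a long cytoplasmic tail with immunoreceptor tyrosine-based inhibitory motifs (ITIMs), which recruit the phosphatases SHP-1 and SHP-2 after phosphorylation by Src-family kinases such as Lyn. The activating form has a short tail and a charged residue in its membrane span, through which it joins the FcRγ adaptor. Lilrb4a encodes the inhibitory receptor also called gp49B and Lilr4b its partner gp49A, and Pirb encodes PIR-B, an inhibitory receptor for major histocompatibility complex (MHC) class I molecules, while Pira2 and Lilra6 belong to the activating PIR-A group.

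The coding sequences of the reference transcripts, for each gene the coding transcript with the longest coding sequence, showed this division for 5 of the 6 members. Lilr4b had a tail without ITIMs, but no lysine or arginine in its likely membrane span. After the most hydrophobic stretch of 19 codons, taken as the likely membrane span, 78 codons remained in Lilrb4a and 179 in Pirb. The corresponding tails were 46 codons in Lilr4b, 28 in Lilra5 and 15 in both Pira2 and Lilra6. An ITIM-type pattern (isoleucine, leucine, valine or serine, any residue, tyrosine, any 2 residues, then isoleucine, leucine or valine) occurred 2 times in the tail of Lilrb4a and 3 times in that of Pirb, and 0 times in the tails of the other 4 members. A lysine or arginine codon lay inside the hydrophobic stretch of Pira2, Lilra6 and Lilra5, and in neither Lilrb4a, Lilr4b nor Pirb. The codons of these patterns, which tell the inhibitory members from their partners, are shown with the tyrosine codon in capitals (mm10, coding strand, read from the GENCODE M21 transcripts). The first Pirb pattern spans an exon junction.
Lilrb4a, chr10:51496021-51496038, plus strand: attgtcTACgcccaggta
Lilrb4a, chr10:51496194-51496211, plus strand: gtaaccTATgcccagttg
Pirb, chr7:3713862-3714103, minus strand: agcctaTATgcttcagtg
Pirb, chr7:3712786-3712803, minus strand: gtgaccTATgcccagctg
Pirb, chr7:3712696-3712713, minus strand: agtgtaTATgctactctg

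The members lie in a pair on chromosome 10 and in a cluster on chromosome 7. Lilr4b spans chr10:51480632-51486703 and Lilrb4a chr10:51490956-51496611, both on the plus strand of mm10. Another annotated gene, Gm49339, spans both (chr10:51480612-51496613) as a readthrough gene whose main transcript joins the first exon of Lilr4b to the second exon of Lilrb4a. Pirb (chr7:3711409-3720391), Pira2 (chr7:3836812-3845051) and Lilra6 (chr7:3908280-3915503) lie on the minus strand, and Lilra5 (chr7:4237754-4243463) on the plus strand. Between and around them the annotation lists further copies, of which Gm15922, annotated as a polymorphic pseudogene and named Pira1 by RefSeq, Gm14548 and Gm15448 had counts well above 3 in every library.

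How far these copies can be told apart limits every value of the family. The reference coding sequences of Lilrb4a and Lilr4b were identical in 96.0% of 907 aligned bases, with 126 identical bases as the longest run. Pirb and Pira2 matched in 95.9% of 2022 bases, with a run of 477, and Pirb and Lilra6 in 94.9% of 1983. Across the families similarity was much lower, at 74.0% between Lilrb4a and Pirb. Of the distinct 31-base words in the transcripts of each gene, 43.9% were held by no other gene for Lilrb4a, 62.7% for Lilr4b, 55.9% for Pirb and 50.4% for Lilra6. For Pira2 the share was 3.29%, and 88.1% of its words were also in Gm15922. Lilra5 shared no word with another gene (100% specific).

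**Figure D1:**
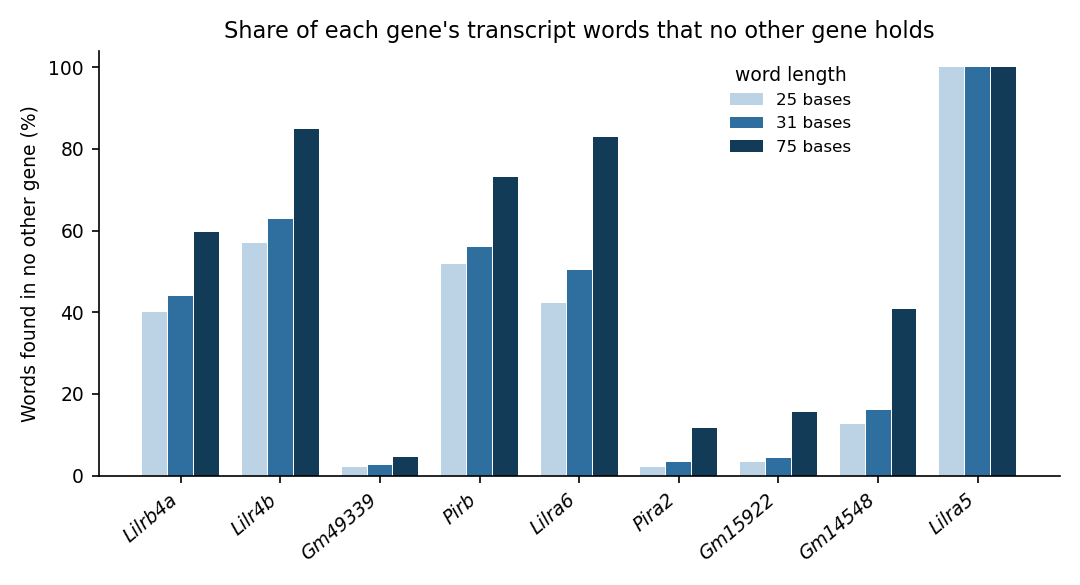
Share of distinct words of 25, 31 and 75 bases (y axis, percent) in each gene's annotated transcripts (x axis) that no transcript of another gene holds on either strand. Pira2, Gm15922 and the readthrough gene Gm49339 have few words of their own (3.29%, 4.37% and 2.53% at 31 bases), while all words of Lilra5 are its own.

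Longer words set the genes further apart but kept this picture. At 75 bases the specific share was 85.0% for Lilr4b, 82.9% for Lilra6, 73.1% for Pirb and 59.7% for Lilrb4a, and only 11.7% for Pira2. The readthrough gene was the extreme case: all 1351 of the 31-base words of Lilrb4a-201, the reference coding transcript of Lilrb4a, were also in Gm49339-203, and the coding sequences of both transcripts (1005 bases) were identical. The junctions of exon 1 (lower case) with exon 2 (capitals) show what reads over them can tell apart: the 30 bases were identical in Lilrb4a-201 and Gm49339-203.
Lilrb4a-201, exon 1 ending at chr10:51491051 and exon 2 starting at chr10:51491197: tgctgctataccttgGTCTTATTCTGGAAC
Gm49339-203, exon 1 ending at chr10:51480753 and exon 2 starting at chr10:51491197: tgctgctataccttgGTCTTATTCTGGAAC
Lilr4b-201, exon 1 ending at chr10:51480753 and exon 2 starting at chr10:51480906: tgctgctataccttgCTCTTATTCTGGAAC

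Levels were compared per length, as TPM over genes of at least 300 nt, from the RSEM-type gene tables. Lilrb4a had 4669, 2611 and 2589.5 TPM in the libraries of replicates 1, 2 and 3, averaging 3289.8 ± 1195 (SD, n = 3), which ranked it 13 among 46615 genes. Lilr4b had 3944, 2318 and 2146 TPM, a mean of 2802 ± 992, at rank 15. For both genes replicate 1 was high and the other 2 libraries were close to each other. With the ribosomal locus left out of the scaling, a step added after seeing the data, replicate 1 still gave the highest level of Lilrb4a (5067, 3584 and 3397 TPM) and of Lilr4b (4279.9, 3182 and 2814 TPM).

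Pirb was the third member in order, with 617, 515 and 563 TPM in replicates 1, 2 and 3 (565 ± 51.2, rank 124). Its 3 libraries lay close together. Pira2, its activating relative, had 29.3, 19.4 and 22.2 TPM (23.6 ± 5.14). Lilra6 had 4.14, 2.55 and 4.46 TPM (3.72 ± 1.02), from 54.5, 52.3 and 80.7 estimated counts. Lilra5 had 1, 1 and 0 counts, under the 3 counts that bound an observed 0 (0.272 and 0.175 TPM in replicates 1 and 2), so it was not detectable at this depth. From Lilr4b down to Lilra5, the libraries of neighbouring members in this order did not overlap, whereas those of Lilrb4a and Lilr4b did.

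**Figure D2:**
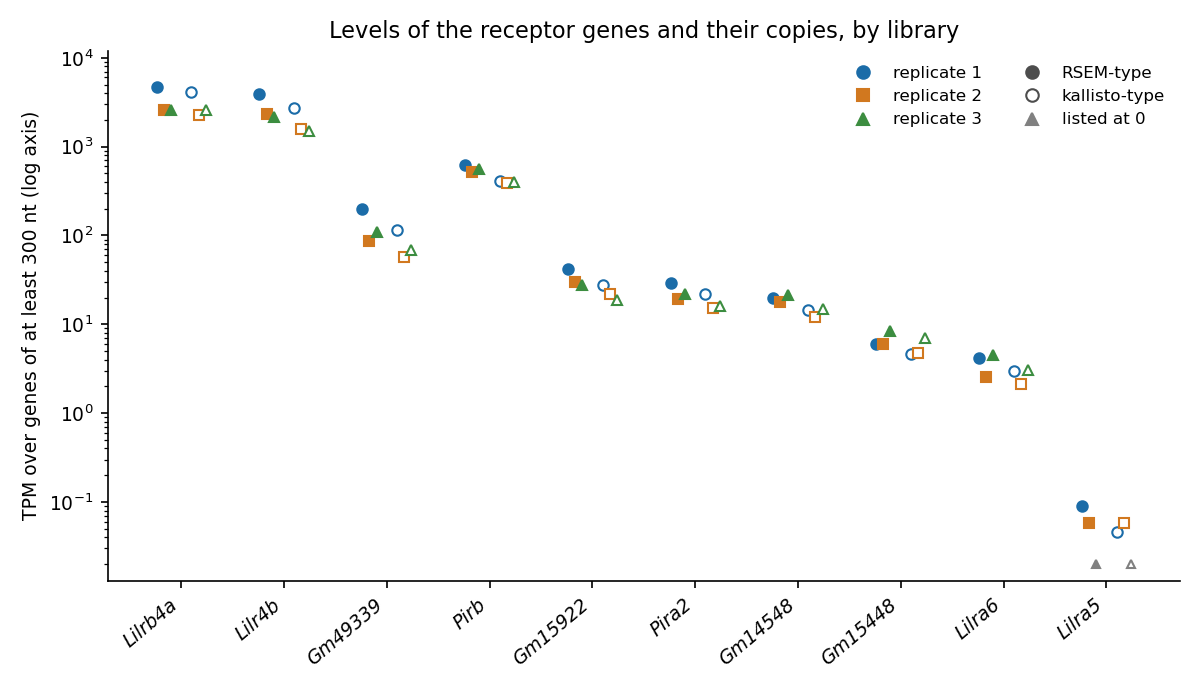
Levels (y axis, TPM over genes of at least 300 nt, log axis) of the 6 members and 4 copies (x axis) in each of the 3 libraries, filled symbols from the RSEM-type and open symbols from the kallisto-type tables, with values of 0 in grey at the bottom. Lilrb4a and Lilr4b lie above 1000 TPM in every library, Pirb between 388 and 617 TPM, and Lilra5 near 0.

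Ratios between members were taken within each library. Lilrb4a exceeded Lilr4b by 0.24, 0.17 and 0.27 log2 units in replicates 1, 2 and 3 (0.23 ± 0.05, pseudocount 1 TPM). This order held per length only: in CPM (counts scaled to the library total) without length the ratio was -0.34, since Lilr4b had 66839, 60288 and 51823 counts and Lilrb4a 53533, 46527 and 41739. Pirb exceeded Pira2 by 4.35, 4.66 and 4.61 log2 units (4.54 ± 0.17), that is 23.2-fold, and Pira2 exceeded Lilra6 by 2.56, 2.52 and 2.09 log2 units (2.39 ± 0.26). Lilr4b exceeded Pirb by 2.67, 2.17 and 1.93 log2 units. This gap between Lilr4b and Pirb was widest in replicate 1 and narrowest in replicate 3.

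The kallisto-type tables of the same libraries gave the members in the same order of mean level. Their means were 2993 ± 986 TPM for Lilrb4a, 1933 ± 691 for Lilr4b, 398 ± 10.3 for Pirb, 17.8 ± 3.79 for Pira2 and 2.71 ± 0.525 for Lilra6. The log2 ratio of Lilrb4a to Lilr4b was wider there (0.64). RSEM attaches its own spread to counts from shared reads, and for Pira2 this posterior SD was 34.0, 29.0 and 27.7 counts in replicates 1, 2 and 3, on 519, 559 and 616 counts. For Lilrb4a it was at most 58.3 counts, on 41739 or more.

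Of the copies near Pirb, 3 lay above Lilra6 in mean level and 4 below it. Gm15922, with which Pira2 shares most of its sequence, had 41.9, 30.1 and 27.7 TPM (33.2 ± 7.60), Gm14548 had 19.8, 17.7 and 21.2 TPM (19.6 ± 1.77), and Gm15448 had 6.02, 5.99 and 8.40 TPM. The libraries of Pira2 overlapped those of Gm15922 and Gm14548. Gm15925 (0.292 TPM on average), Gm10693 (0.795) and Gm15931 (0.269), annotated pseudogenes, were near 0, and Gm15930 had 0 counts in all 3 libraries. Among the other genes of the leukocyte receptor region, Lair1, an inhibitory collagen receptor, had 97.9 ± 37.2 TPM, while Oscar, Kir3dl1 and Kir3dl2 had no counts. Of 24 symbols listed for receptor copies and this region 12 were in the annotation, and 5 reached 1 TPM.

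The upstream sequences of Pirb and the PIR-A genes were nearly alike although their levels were not. RefSeq windows from 250 bases before to 50 after the start (GRCm38.p6, the assembly of mm10) matched 5 of the 6 members by symbol, with no entry for Lilrb4a. Before the start, Pira1 (Gm15922) was identical to Pirb in 98.0% of 250 aligned bases, Pira2 in 97.7% of 222 and Lilra6 in 96.4% of 220, against 75.1% of 173 for Lilra5. The last 150 bases before the Pirb start and the aligned bases of its relatives are printed with every base that differs from Pirb in capitals.
Pirb, chr7:3720383-3720532, minus strand: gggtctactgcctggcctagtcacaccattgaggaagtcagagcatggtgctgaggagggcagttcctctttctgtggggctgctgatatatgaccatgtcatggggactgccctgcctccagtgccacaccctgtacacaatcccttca
Pira1, chr7:3739918-3740067, minus strand: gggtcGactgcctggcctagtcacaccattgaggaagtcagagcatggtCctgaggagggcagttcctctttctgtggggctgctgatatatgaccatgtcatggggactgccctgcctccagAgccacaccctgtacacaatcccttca
Pira2, chr7:3845080-3845229, minus strand: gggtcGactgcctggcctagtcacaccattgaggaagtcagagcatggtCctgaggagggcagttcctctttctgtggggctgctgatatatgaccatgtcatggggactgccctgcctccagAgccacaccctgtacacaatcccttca
Lilra6, chr7:3915532-3915681, minus strand: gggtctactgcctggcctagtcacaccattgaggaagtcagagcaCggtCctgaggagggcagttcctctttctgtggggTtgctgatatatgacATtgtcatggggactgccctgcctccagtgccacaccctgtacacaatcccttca

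Pira1 and Pira2 each differed from Pirb at 3 of these 150 bases and Lilra6 at 5, with no gap. In TPM the same genes stood at 565 (Pirb), 33.2 (Gm15922), 23.6 (Pira2) and 3.72 (Lilra6). The PU.1-type motif GAGGAAGT, named for a transcription factor of myeloid and B cells, occurred 1 time in each of the 4 windows, 120 bases before the start of Pirb and Pira1, 148 before that of Pira2 and 150 before that of Lilra6. On either strand it was in 3.20% of all 32851 RefSeq windows of 300 bases. The AP-1-type motif TGANTCA (7.81% of all windows), the NF-kB-type motif GGGNNTTCC (5.82%), the interferon-response-type motif GAAANNGAA (8.56%) and the C/EBP-type motif TTGCNNAA (10.8%) matched in none of the 4. Lilr4b matched none of the 5 motifs, and Lilra5 matched only TTGCNNAA.

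Most counts of the chromosome 10 pair fell on transcripts annotated with a retained intron. In the RSEM-type transcript tables, retained-intron transcripts held 99.9% ± 0.105 (SD, n = 3) of the counts of Lilrb4a, 53523 of 53533 in replicate 1. They held 95.5% ± 0.420 of those of Lilr4b, 73.5% ± 2.11 of those of Pirb and 55.7% ± 15.1 of those of Lilra6. Over all 5990 genes with such a transcript and at least 50 counts, the mean share was 32.3% and the median 26.1%; 14 genes lay above Lilrb4a, 58 above Lilr4b, 526 above Pirb and 1243 above Lilra6. Pira2 and Lilra5 have no transcript of this class in the annotation, so their shares could not differ from 0. In the kallisto-type tables the shares were 99.9%, 96.0%, 79.2% and 62.5%, in the same order, and 106, 285, 813 and 1525 of 7382 genes lay above them. Coding transcripts of Gm49339, which share every word of Lilrb4a-201, held 1300, 815 and 1062 counts in replicates 1, 2 and 3 (RSEM-type tables). These counts are outside the Lilrb4a share, so its share and rank may be too high. The class also includes Lilrb4a-206, which contains no whole intron of Lilrb4a-201. It held 23.8% of the gene's counts, and 45.4% in the kallisto-type tables. The share and rank of Lilrb4a are therefore those of an annotated class, not of RNA shown to contain an intron.

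**Figure D3:**
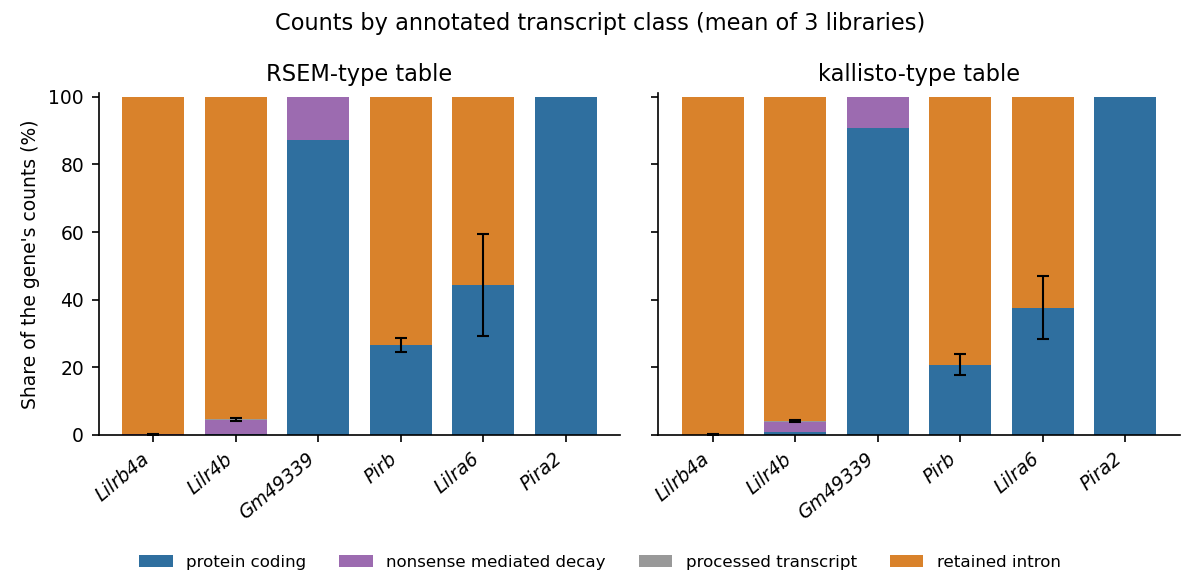
Share of each gene's counts (y axis, percent, mean of 3 libraries) on each annotated transcript class, in the RSEM-type (left) and kallisto-type (right) tables; the error bar is the SD of the retained-intron share. Retained-intron transcripts fill nearly all of Lilrb4a and Lilr4b and 73.5% of Pirb in the RSEM-type table.

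Fully spliced coding transcripts of the chromosome 10 locus were a small part. Of all counts on Lilrb4a, Lilr4b and Gm49339, coding transcripts held 1.23%, 0.911% and 1.38% in replicates 1, 2 and 3 (1.18% ± 0.242), and 83.4% ± 2.76 of those were placed on Gm49339. The 4 coding transcripts of Lilrb4a together held 0, 1.22 and 0 counts and the 2 of Lilr4b 205, 166 and 250 counts. Transcripts annotated for nonsense-mediated decay, which also keep no whole intron in these genes, are not among them. The 2 of Lilr4b held 2835, 2153 and 2167 counts and the 1 of Lilrb4a 10.2, 84.7 and 88.8. The coding share is therefore not the whole spliced share of the locus. Since Gm49339-203 contains every word of Lilrb4a-201, no word sets reads of Lilrb4a-201 apart from it. In turn 95.7% of the words of Gm49339-203 were in Lilrb4a-201, so only its remaining words set Gm49339-203 apart. The coding counts of Lilrb4a thus give no level of its own spliced form. Gm49339 as a whole had 201, 85.8 and 110.5 TPM (132 ± 60.6), from 1466, 977 and 1183 counts. In Pirb, by contrast, its single coding transcript Pirb-201 held 27.0%, 28.2% and 24.1% of the counts (26.5% ± 2.11).

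Among single transcripts, Lilrb4a-209 (35.8% ± 2.03 of the gene's counts), Lilrb4a-206 (23.8% ± 2.23), Lilrb4a-214 (19.5% ± 3.36), Lilrb4a-207 (10.8% ± 0.590) and Lilrb4a-211 (7.16% ± 1.33) led Lilrb4a. Lilrb4a-206 is a model of 1279 nt at the 3′ end (chr10:51495216-51496601) that starts inside intron 7, and its share was 45.4% ± 4.20 in the kallisto-type tables, where Lilrb4a-209 had 21.8% ± 0.594. In share of counts the 2 methods thus disagreed on which model led, beyond the spread of the libraries. In deposited TPM, which account for length, Lilrb4a-206 led in both. It averaged 509 against 302 for Lilrb4a-209 in the RSEM-type and 1159 against 222 in the kallisto-type tables. Lilr4b was led in both by Lilr4b-206 (40.6% ± 5.95, and 52.0% ± 2.54 in the kallisto-type tables), a single unspliced exon of 4004 nt that covers introns 1 to 6. Lilr4b-207 (27.5% ± 4.66) and Lilr4b-208 (18.3% ± 1.56) followed. The Lilr4b-206 share was 46.3%, 41.2% and 34.4% in replicates 1, 2 and 3.

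On chromosome 7 the model with the highest mean share kept 1 intron in Pirb, 2 in Lilra6 and 0 in Pira2. Pirb-202, which keeps intron 6, held 37.7%, 37.7% and 44.3% of Pirb counts (39.9% ± 3.80). Pirb-205, which keeps introns 1, 6 and 7, held 24.2% ± 2.57, and Pirb-204, with introns 1 and 6, 6.43% ± 2.27. For Pira2, Pira2-201 held 95.5% ± 3.69 in the RSEM-type but 66.3% ± 11.3 in the kallisto-type tables, with the rest on the shorter Pira2-202. The counts of Lilra6 were too few to order its models: Lilra6-205 held 35.8% ± 4.99, Lilra6-204 31.9% ± 16.4, Lilra6-203 20.0% ± 17.6 and Lilra6-202 8.03% ± 7.49, and Lilra6-203 ranged from 0 to 17.4 counts. Lilra6-204 is annotated as coding but keeps intron 1, so the class shares understate intron-containing RNA there.

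The introns of Lilrb4a and Lilr4b could be compared one by one, because each has 8 introns of nearly equal length. Introns 1 to 6 were identical in 95.2% to 97.5% of their aligned bases. For each, the TPM of transcripts that contain the whole intron was set against that of transcripts that splice it exactly. Transcripts that do neither were left out. At intron 4 these included Lilrb4a-206 and Lilrb4a-207, which start beyond it (509 and 153 of the gene's 1173 TPM as deposited). In Lilr4b they were Lilr4b-202 and Lilr4b-210 (51.5 and 33.5 of 999). By this rule introns 3 and 5 had the highest shares, 99.4% ± 0.427 and 99.5% ± 0.401 in Lilrb4a and 93.1% ± 1.14 and 87.1% ± 0.995 in Lilr4b. The Lilr4b share at intron 3 leaves out Lilr4b-207, which keeps only introns 5 and 6 and averaged 273 TPM as deposited. The place of intron 3 in Lilr4b thus rests on the rule. Intron 6 had 76.5% ± 2.46 in Lilrb4a and 82.1% ± 1.49 in Lilr4b, where Lilr4b-208 (138 TPM as deposited), which does not keep intron 6, is left out. The order of the genes at intron 6 thus also rests on the rule. No annotated transcript contains introns 7 or 8 whole, so their share is 0 by construction.

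By these shares the pair differed most at introns 4, 1 and 2. Only at intron 4 was every transcript of both genes that spans the intron scored. Intron 4 was contained in 96.7%, 95.6% and 95.4% of Lilrb4a in replicates 1, 2 and 3 (95.9% ± 0.654) but in 56.0%, 49.3% and 45.04% of Lilr4b (50.1% ± 5.54). Intron 1 gave 77.8%, 70.3% and 71.8% in Lilrb4a against 49.3%, 42.5% and 35.6% in Lilr4b. Only the upstream of 2 donors, 5 nt apart, counted as splicing it. Transcripts with the downstream donor, left out here, held 96.3% of the TPM at either donor in Lilrb4a and 33.0% in Lilr4b. Lilrb4a-211, which keeps intron 1, averaged 47.4 TPM as deposited, against 302 for the left-out Lilrb4a-209. In Lilr4b, Lilr4b-206 keeps it and averaged 314, against 65.9 for the left-out Lilr4b-204. The order of the genes at intron 1 thus rests on this rule. Intron 2 had the opposite order to intron 4, with 34.6%, 38.7% and 31.04% in Lilrb4a against 63.3%, 63.6% and 56.0% in Lilr4b. The Lilr4b share leaves out Lilr4b-207, which does not keep intron 2 and averaged 273 TPM as deposited. Lilr4b-206, which keeps it, averaged 314. The size of the contrast at intron 2 thus also rests on the rule. By this rule the libraries of the genes did not overlap at any of introns 1 to 6. With the transcripts of Gm49339 added to Lilrb4a, a step chosen after seeing the data, intron 4 was contained in 87.6% ± 1.35 and intron 2 in 31.8% ± 3.98. Intron 3 then overlapped between the genes and its order turned, at 90.9%, 92.1% and 89.5% (90.8% ± 1.33) against 92.1%, 94.3% and 92.8% in Lilr4b. In the kallisto-type tables intron 4 stood at 96.1% in Lilrb4a and 55.6% in Lilr4b.

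**Figure D4:**
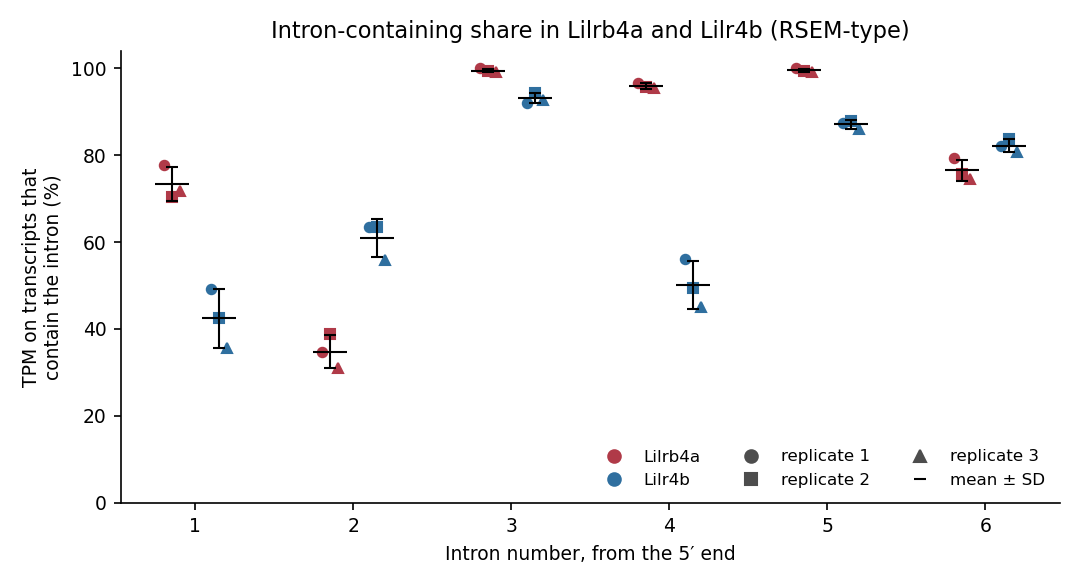
Share of TPM (y axis, percent) on transcripts that contain each of introns 1 to 6 (x axis) in Lilrb4a (red) and Lilr4b (blue), as points per library with mean and SD. Only transcripts that contain the intron or splice it exactly are counted. Intron 4 has 95.9% in Lilrb4a and 50.1% in Lilr4b, and intron 2 shows the opposite order. The order at introns 1 and 6 and the size of the contrast at intron 2 rest on this rule.

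The splice sites of these introns differed at 0 to 6 of 30 bases between the genes. The 30 bases around the donor and around the acceptor of intron 4 were identical in both genes, those around the donor of intron 2 were identical, and those around its acceptor differed at 1 base. At intron 1 the donor bases were identical and the acceptor differed at 6 of 30. The intron 4 sites are printed with the terminal bases of the intron in capitals (plus strand).
Lilrb4a intron 4 donor, chr10:51492154-51492183: atgatctcagGTaagcaccttccacccata
Lilr4b intron 4 donor, chr10:51481860-51481889: atgatctcagGTaagcaccttccacccata
Lilrb4a intron 4 acceptor, chr10:51493150-51493179: tctccatcaacctctggcAGaaaccaagga
Lilr4b intron 4 acceptor, chr10:51482849-51482878: tctccatcaacctctggcAGaaaccaagga

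The genes also differed in the share of TPM on models with each donor at intron 1. Transcripts of both genes end exon 1 at either of 2 GT donors, 5 nt apart, in a window that is identical in the 2 genes (donor bases in capitals, plus strand).
Lilr4b, chr10:51480742-51480771: tgctataccttgGTgagGTataatgagggg
Lilrb4a, chr10:51491040-51491069: tgctataccttgGTgagGTataatgagggg
The downstream donor was used by transcripts with 96.4%, 96.2% and 96.4% of the TPM of Lilrb4a that used either (96.3% ± 0.149). In Lilr4b it had 35.0%, 32.6% and 31.6% (33.0% ± 1.76). The kallisto-type tables gave 96.3% ± 0.406 and 35.3% ± 3.52. Gm49339-203, whose first junction matches that of Lilrb4a-201 with the upstream donor, is outside these shares. It averaged 37.5 TPM as deposited, against 16.2 for Lilrb4a-208, the highest upstream-donor model of Lilrb4a. The downstream share of Lilrb4a may therefore be too high. In Lilrb4a the downstream donor belongs to Lilrb4a-209 and Lilrb4a-214, the leading retained-intron models, and the upstream donor to all 4 coding transcripts, while in Lilr4b the upstream donor belongs to Lilr4b-207 and Lilr4b-208. Counts are placed on whole transcript models, so a share at 1 donor or intron also carries reads from other parts of those models, and reads over the sites themselves were not counted here.

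An antisense gene, Gm40645 (chr10:51489530-51522447, minus strand), overlaps Lilrb4a. It had 22, 13 and 10 counts in replicates 1, 2 and 3, against 41739 or more for Lilrb4a. The strand setting of the counting is not stated in these sources, and without strand the reads of both genes cannot be told apart where they overlap.

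The labelled RNA amount is the only recorded difference between the libraries. Each amount is 1 library, so amount cannot be told apart from replicate, and the edgeR fit had 1 residual degree of freedom. Across 14108 genes tested 1101 (7.8%) were called at an adjusted p under 0.05, 4.71% higher and 3.09% lower with more RNA. Of the 5 members tested, 0 were called, and 0 had an unadjusted p under 0.05 in edgeR or an adjusted p under 0.05 in DESeq2. Lilra5 fell under the count filter.

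In CPM with TMM scaling, Lilrb4a stood at 3613, 2613 and 2268 in replicates 1, 2 and 3, and Lilr4b at 4511, 3385 and 2816. Both were highest at 1000 ng and lowest at 500 ng, so neither followed the amounts in order. The log2 change per doubling was 0.23 ± 0.15 (SE) for Lilrb4a (edgeR adjusted p = 0.364) and 0.21 ± 0.16 for Lilr4b (edgeR adjusted p = 0.447). Without replicate 1 the values turned to -0.20 and -0.27. Pirb had 706, 784 and 768 CPM and a change of -0.08 ± 0.14, and Pira2 35.0, 31.4 and 33.5 with 0.08 ± 0.15. Lilra6 had 3.64, 2.92 and 4.40 with 0.16 ± 0.25, and -0.27 without replicate 2. The members' median was 0.16, beside -0.01 over all genes tested.

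The readthrough gene Gm49339 was called higher with more RNA, at 98.9, 54.9 and 64.3 CPM in replicates 1, 2 and 3, which follow the amounts in order. Its log2 change per doubling was 0.43 ± 0.13 (SE; edgeR adjusted p = 0.0426). The call was lost in DESeq2 (adjusted p = 0.149), without the count filter (edgeR adjusted p = 0.0806), in the kallisto-type counts (edgeR adjusted p = 0.161) and without the ribosomal locus (edgeR adjusted p = 0.0525), and without replicate 1 the change was 0.23. Whether Gm49339 differed from Lilrb4a in this respect was not tested.

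**Figure D5:**
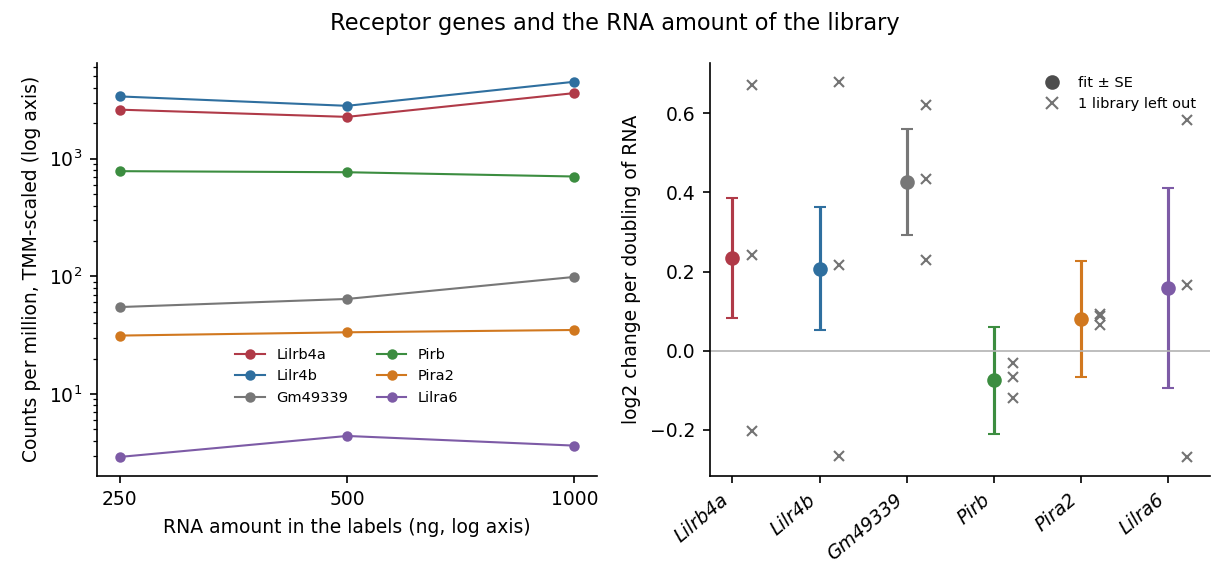
Left, CPM with TMM scaling (y axis, log axis) against the RNA amount of the library in ng (x axis, log axis) for 5 members and Gm49339. Right, log2 change per doubling of RNA with its SE, and the same with 1 library left out (crosses); for Lilrb4a and Lilr4b the crosses fall on both sides of 0, from -0.20 to 0.67 and from -0.27 to 0.68.

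Genes that act with these receptors were present in the same libraries. Of 16 adaptors, kinases and phosphatases, 15 reached 1 TPM, with a median of 49.6 TPM. Syk, the kinase downstream of activating adaptors, was highest (593 ± 138 TPM), then Inpp5d, which encodes the phosphatase SHIP-1 (433 ± 26.7), and Fgr, a Src-family kinase, was lowest (0.338). In the kallisto-type tables Inpp5d (465) lay above Syk (432). The FcRγ adaptor gene Fcer1g and the SHP-1 gene Ptpn6, picked after their values were seen for their role in PIR-A and PIR-B signalling, had 58.6 ± 3.56 and 50.6 ± 4.08 TPM. None of the 15 tested was called with RNA amount in edgeR.

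Of 11 genes for known ligands, 9 reached 1 TPM, with a median of 81.7 TPM. The MHC class I genes H2-D1 (1505 ± 265 TPM) and H2-K1 (1387 ± 344), whose products PIR-B binds, led, and Mag, a myelin ligand of PIR-B, was lowest (0.563). In the kallisto-type tables Mag averaged 25.1 TPM, so its level and rank depended on the table. Fibronectin, a ligand of the gp49B receptor, was listed at 0.613 TPM on average (Fn1), and at 3.31 TPM, the lowest of the list, in the kallisto-type tables. None of the 9 tested was called with RNA amount in edgeR.

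Other inhibitory myeloid receptors gave a scale for the family: 13 of 15 reached 1 TPM, with a median of 31.1 TPM. Sirpa, the receptor for CD47, had 1575 ± 584 TPM and Fcgr2b, the inhibitory Fc receptor, 555 ± 273, against 0.278 for Siglece. Lilrb4a thus stood above all 15 of these in mean level, and Pirb at about the level of Fcgr2b. Of 13 tested, 2 were called higher with more RNA, beside 4.71% of all genes: Fcgr2b (log2 change per doubling 0.69 ± 0.13, edgeR adjusted p = 0.000389) and Cd33, a sialic acid receptor (0.62 ± 0.15, edgeR adjusted p = 0.00605). Fcgr2b had 480, 185 and 278 CPM in replicates 1, 2 and 3, and Cd33 68.9, 29.0 and 53.2.

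With 3 libraries, a gene's pattern has little to distinguish it. Among 8185 genes of at least 10 TPM, Fut8, Rab11fip2 and Wsb1 lay nearest to Lilrb4a in centred log2(TPM + 1), at Euclidean distances of 0.00876, 0.0127 and 0.0135, and 15 genes lay within 2 times the third distance. For Pirb the nearest were 9930111J21Rik1, Parn and March6 (0.00107, 0.0048 and 0.00632), with 11 genes within 2 times the third distance. With kallisto-type values, 0 of the 3 nearest genes were shared, for Lilrb4a as for Pirb.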

How the data were processed

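Chromatin-fraction RNA of 1 group of 3 libraries was analysed. Groups, replicate numbers and RNA amounts came from the labels. The members and gene lists were chosen with earlier results of these data known.

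For each library the authors deposited RSEM-type gene and transcript tables with expected counts and TPM, and a kallisto-type transcript table with estimated counts and TPM, per the file headers. The posterior SD of a count is an RSEM-type score, per the file headers. The tables refer to mm10 and GENCODE M21, per the deposited readme files. The sources used here give no aligner, tool version or strand setting.

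TPM were recomputed from deposited expected counts divided by effective length, over 46615 genes of at least 300 nt. Deposited TPM also cover small RNAs, which with spike-ins held 61.7% to 67.1% of them. Non-gene entries took 0.308% to 1.53% of gene table counts and were left out. Shares of counts and TPM were computed per gene and library, as mean ± SD over 3 libraries. A count of 0 allows up to 3 counts, which covers counting error only. Expected counts were rounded to whole numbers and fitted against log2 RNA amount in edgeR 4.0.16 (R 4.3.3). The fit used TMM, filterByExpr, a quasi-likelihood test and Benjamini-Hochberg over all genes, and the SE was derived from the F statistic. The procedure was run on simulated data with larger changes than those of the members, so its power for changes of their size was not tested. DESeq2 1.42.0 was an alternative. Words of 31 bases were compared on both strands with all GENCODE M21 transcripts, and sequences were aligned with biotite 1.4.0. Other steps used Python 3.11.15, numpy 2.4.6 and pandas 2.3.3.

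Named were all members and copies, transcripts with at least 5% of a member's counts, the 2 highest and the lowest gene of each list, genes called where 5 or fewer were called, and the 3 nearest genes of Lilrb4a and Pirb. Alternatives were other normalizations, filters, pseudocounts, word lengths, the kallisto-type tables and leaving out each replicate.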

Additional observations from a re-analysis of the deposited data

How the results depend on the processing

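The number of genes called with RNA amount was 1101 with edgeR and stayed within 1.5 times with RLE size factors, without a count filter and without the ribosomal locus, but was 368 with DESeq2 and 503 in the kallisto-type counts; no member was called under any of these 5 alternatives. Deposited TPM, scaled over all entries, gave 1173 for Lilrb4a, 999 for Lilr4b, 205 for Pirb, 8.50 for Pira2 and 1.35 for Lilra6. The kallisto-type tables gave 398 for Pirb and 17.8 for Pira2, and leaving out the ribosomal locus, added after seeing the data, 705 and 29.2. The log2 ratio of Lilrb4a to Lilr4b was 0.64 in the kallisto-type tables and -0.34 in CPM without length, where its direction turned. That of Lilra6 to Pira2 was -2.65 with a pseudocount of 0.1 and -2.89 without length. Retained-intron shares were 88.2% (share of TPM) and 96.0% (kallisto-type) for Lilr4b, and 78.5% and 79.2% for Pirb. Specific words of 25 bases made up 40.1% for Lilrb4a, 56.9% for Lilr4b, 51.7% for Pirb, 2.17% for Pira2 and 42.4% for Lilra6, and words of 75 bases 59.7%, 85.0%, 73.1%, 11.7% and 82.9%. For Lilrb4a and for Pirb 0 of the 3 nearest genes were shared with the kallisto-type tables. The cause of these shifts was not tested. Leaving out 1 library moved mean levels to 2600 to 3640 TPM for Lilrb4a, 2232 to 3131 for Lilr4b, 539 to 590 for Pirb, 20.8 to 25.8 for Pira2, 3.34 to 4.30 for Lilra6 and 0.0291 to 0.0744 for Lilra5, and the retained-intron share of Lilra6 to 48.5% to 63.6%. With 1 group of 3 libraries and no control, no paired analysis was possible because no groups were compared.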
